A study of Arabidopsis thaliana with 30 samples.

Results

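Myrosinases and the proteins that steer glucosinolate breakdown were followed as a set of named genes in aerial tissue of Arabidopsis thaliana. The set was fixed by gene identifier and lists 9 genes, and it was chosen with earlier results of these data known. Of these, 8 were analysed here among 33498 counted genes, and the ninth was not analysed here. The 8 are the myrosinases TGG1 (AT5G26000) and TGG2 (AT5G25980), the specifier proteins ESP (AT1G54040), NSP1 (AT3G16400) and NSP5 (AT5G48180), and the atypical myrosinases PEN2 (AT2G44490), PYK10 (AT3G09260) and BGLU18 (AT1G52400). All 8 passed the filter on low counts.

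RNA was sequenced from untreated 15-day seedlings of 10 lines, with 3 libraries of each. The lines were the inbred accessions C24 and Ler (Landsberg erecta), the F1 hybrids from both directions of the cross (C24XLer, LerXC24), and 6 F6 lines bred from the same cross by recurrent selection. Of the F6 lines, the hybrid mimics were HM-G, HM-S and HM-W, and the remaining ones were Sml-D, Med-E and Med-F. The F6 libraries are siblings of 1 line each, the sources used here do not say whether a library is 1 plant or a pool, and no harvest time is given.

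Glucosinolates are sulfur-containing thioglucosides that the plant stores away from the enzymes that cleave them. When tissue is damaged, a myrosinase removes the glucose and leaves an unstable aglucone, which rearranges to an isothiocyanate unless a specifier protein diverts it to a nitrile or an epithionitrile. TGG1 and TGG2 are the classical myrosinases of leaves, where they sit in myrosin cells along the veins and in guard cells. PEN2 cleaves indole glucosinolates in living cells during defence against fungi, whereas PYK10 and BGLU18 are stored in ER bodies, which are spindle-shaped compartments of the endoplasmic reticulum. In whole-tissue RNA, fewer cells of a type and less RNA per cell cannot be told apart.

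The coding bases around the acid/base residue of the active site are shown because they separate the classical from the atypical enzymes. They were read from the TAIR10.1 reference genome in RefSeq, which is of the Columbia accession and not of C24 or Ler. Capitals mark the codon at the acid/base position, which is for glutamine in both classical myrosinases and for glutamate in the atypical ones.
TGG1, chr5:9081214-9081243, minus strand: tggatcaccatcaacCAGctatacacagtg
TGG2, chr5:9073907-9073936, plus strand: tggatcaccatcaacCAGcttttcacagtg
PEN2, chr2:18365857-18365886, plus strand: tggtgcacaatgaatGAGccgtgggtctac
PYK10, chr3:2842153-2842182, minus strand: tggatcactttcaatGAGccatgggttttc
BGLU18, chr1:19516374-19516403, plus strand: tggatcacatttaacGAGccatgggtgttt
The last coding bases of the ER-body enzymes are shown because their final 4 codons before the stop, in capitals, encode the retention signal that keeps a protein in the endoplasmic reticulum.
PYK10, chr3:2840657-2840680, minus strand: gcgctcaagAAGGATGAGCTTtaa
BGLU18, chr1:19517907-19517930, plus strand: tccaagctgAGGGAAGAACTCtag
The coding sequences of TGG1 and TGG2 were identical at 82.5% of 1364 aligned bases, the closest pair in the set. PYK10 and BGLU18 shared 70.7% and the other pairs of glucosidases between 59.7% and 64.5%. Among the specifier proteins ESP and NSP1 shared 69.2% of 736 aligned bases, NSP1 and NSP5 65.4% of 969, and ESP and NSP5 64.3% of 725. The models used hold 786 coding bases for ESP, 1413 for NSP1 and 981 for NSP5, so part of the longer sequence is left out.

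Libraries held between 41600826 and 53397900 reads, and in all 30 the gene counts summed to more than the reads (109.2% to 115.0%), for a reason that was not tested. Levels below are CPM, each library's counts scaled to a common total with TMM factors, given as mean ± SD of 3 libraries. Marker genes fitted aerial tissue: 4 leaf mesophyll markers summed to at least 23015 CPM in every library, and 13 root markers to at most 26.6 CPM, with 7 of the 13 under 1 CPM on average. A difference is called where edgeR's quasi-likelihood test, fitted on all genes, gave a Benjamini-Hochberg adjusted p under 0.05, and log2 changes carry their standard error. These p-values measure the spread between the 3 libraries of a line, which may be partly technical.

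The parents differed at most of these genes, always with C24 higher. Of the 8 genes, 6 were called higher in C24 than in Ler and 0 lower, beside 25.8% of all tested genes called in either direction. Their median log2 change was 0.89, beside 0.005 over all tested genes. TGG2 differed most, NSP1 and PYK10 by about 4-fold, TGG1 and NSP5 by less than that, and ESP least among the called genes. PEN2 and BGLU18 were not called.

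**Figure D1:**
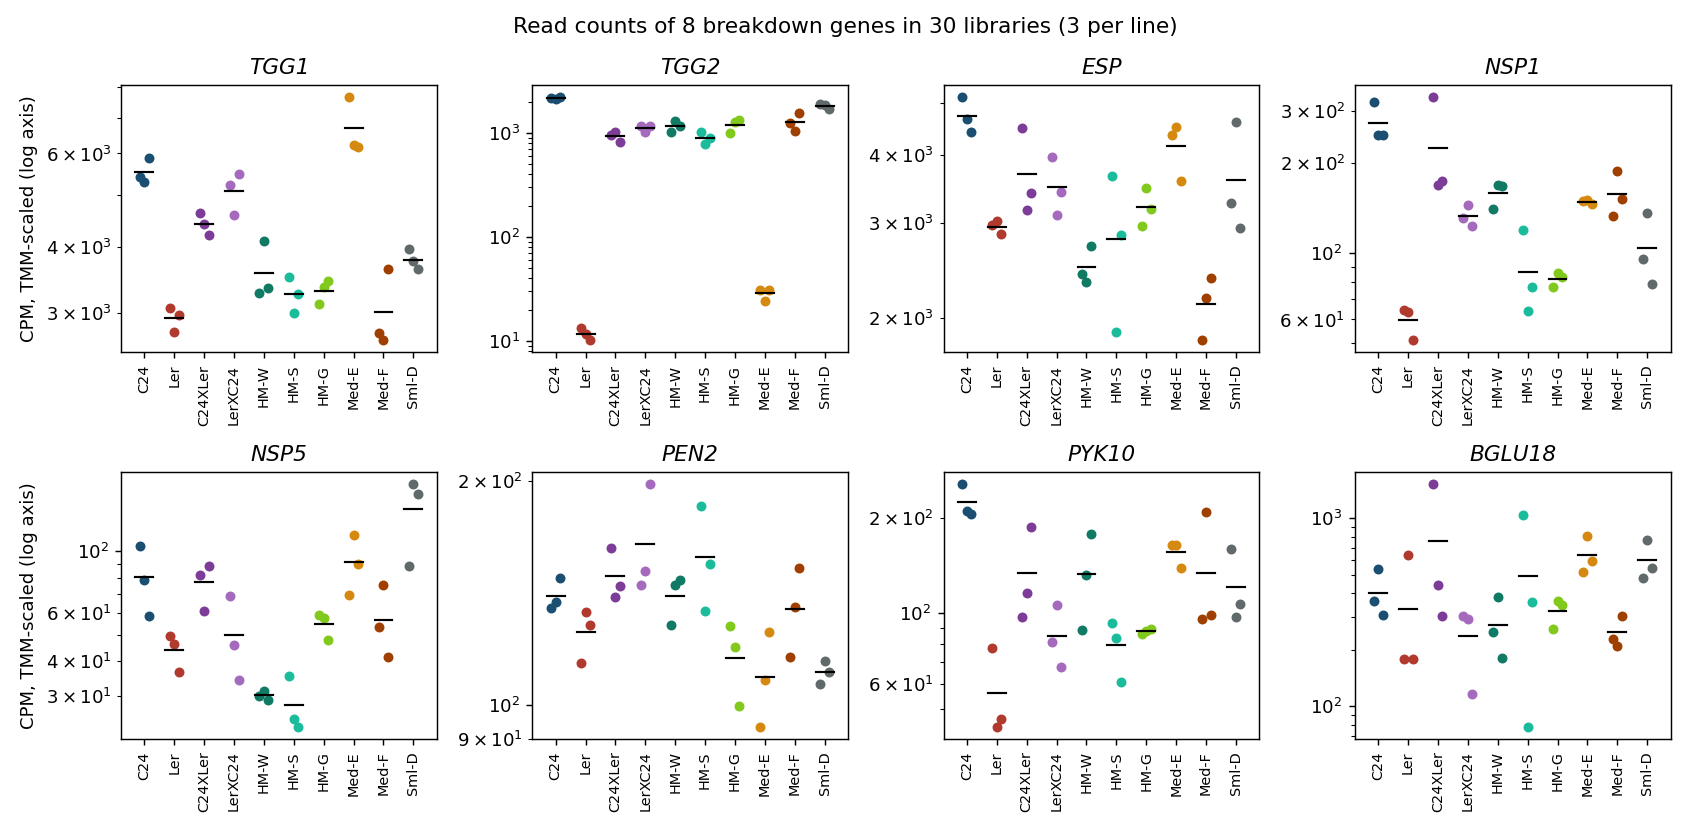
CPM on a log axis for each of the 8 genes, with 1 dot per library and a bar at the mean of the 3 libraries of a line. TGG2 lies between 10.2 and 31.0 CPM in Ler and Med-E and above 779 CPM in every other line, whereas PEN2 stays between 93.4 and 198.3 CPM.

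TGG1 lies on chromosome 5 at 9079452 to 9082384 (TAIR10.1) and TGG2 3674 bases away at 9072708 to 9075777. TGG1 is the more abundant myrosinase of leaves. Its levels in C24 were 5407, 5312 and 5884 CPM, and in Ler 3072.2, 2759 and 2982 CPM. The groups did not overlap, and C24 was higher by a log2 change of 0.91 ± 0.11 (edgeR, adjusted p = 8.1e-07).

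TGG2 read counts were almost absent from Ler. Its levels were 2158, 2131 and 2208 CPM in C24, and 13.4, 11.7 and 10.2 CPM in Ler. C24 was therefore higher by a log2 change of 7.53 ± 0.18, or 185-fold (edgeR, adjusted p = 6.9e-20). The remaining Ler counts, 539 to 659 per library, equalled 0.400% of the TGG1 counts. Whether they are TGG2 transcripts or reads of TGG1 assigned to its neighbour was not tested.

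The hybrids carried TGG2 near the arithmetic mean of the parents. C24XLer libraries had 963, 1029 and 822 CPM, and LerXC24 libraries 1160, 1015 and 1163 CPM. These means equalled 43.3% and 51.4% of the C24 level. Relative to the parental mean of log2 levels (the log mid-parent), TGG2 was higher in both F1 together by 2.68 ± 0.10 (edgeR, adjusted p = 6.5e-15), and it was the only one of the 8 genes called there, beside 11.5% of all tested genes. Against the arithmetic mean of the parents the same difference was -0.09 (adjusted p = 0.67), so the call rests on the log scale.

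TGG1 was also high in the hybrids. It stood at 4626, 4417 and 4204 CPM in C24XLer and at 5232, 4588 and 5483 CPM in LerXC24. In LerXC24, TGG1 and TGG2 were the 2 genes called against the log mid-parent, beside 16.5% of all tested genes. TGG1 was higher there by 0.34 ± 0.09 (edgeR, adjusted p = 0.016). Without the LerXC24 library C the change was 0.28 (adjusted p = 0.13), and with an index of clock gene levels as a covariate it was 0.40 (adjusted p = 0.28), so neither fit called it, nor was it called against the arithmetic mean of the parents (0.27, adjusted p = 0.063). In both F1 together TGG1 was not called (0.24 ± 0.08, adjusted p = 0.052), but it was by DESeq2 (0.033) and without C24 C or LerXC24 B (0.045 each).

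Among the F6 lines TGG2 took 3 levels. Med-E had 31.0, 24.3 and 30.8 CPM, close to Ler. Sml-D had 1885, 1845 and 1713 CPM, below the lowest C24 library, although the difference from C24 was not called (-0.26 ± 0.14, edgeR, adjusted p = 0.23) except in a fit of the compared lines alone (adjusted p = 0.044). The other lines lay near the hybrids, with HM-S lowest at 897 ± 116 CPM, then HM-W at 1165 ± 142, HM-G at 1193 ± 174 and Med-F at 1278 ± 256 CPM.

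Med-E kept a low TGG2 beside the highest TGG1 of all lines. Its TGG1 libraries had 7664, 6232 and 6171 CPM, and all 3 lay above every C24 library. The difference from C24 was not called (0.27 ± 0.11, edgeR, adjusted p = 0.088), whereas that from Ler was (1.19 ± 0.11, adjusted p = 3.6e-08). Med-E TGG2 was higher than in Ler by 1.29 ± 0.14 (adjusted p = 6.5e-07), at 0.431% of its TGG1 counts, the same share as in Ler within the spread of the libraries (0.342% to 0.435% in Ler and 0.390% to 0.498% in Med-E). In the other 8 lines TGG2 was between 21.2% and 48.0% of TGG1.

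In the other F6 lines TGG1 was nearer to Ler than to C24. TGG1 was called lower than C24 in HM-W, HM-S, HM-G, Med-F and Sml-D, by between 0.55 and 0.88 on the log2 scale, and called higher than Ler in Med-E and Sml-D only, with HM-W also called without HM-W 1 (0.34, adjusted p = 0.043). The Sml-D difference from Ler was 0.36 ± 0.11 (edgeR, adjusted p = 0.030), and leaving out any 1 of Ler B, Ler C, Sml-D 1 or Sml-D 2 raised its adjusted p to between 0.071 and 0.12. Ordered by level, TGG1 ran Med-E, C24, LerXC24, C24XLer, Sml-D, HM-W, HM-G, HM-S, Med-F and Ler, and neighbours in that order overlapped except Med-E with C24 and C24XLer with Sml-D. For TGG2 the order was C24, Sml-D, Med-F, HM-G, HM-W, LerXC24, C24XLer, HM-S, Med-E and Ler, and neighbours overlapped only from Med-F to HM-S.

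**Figure D2:**
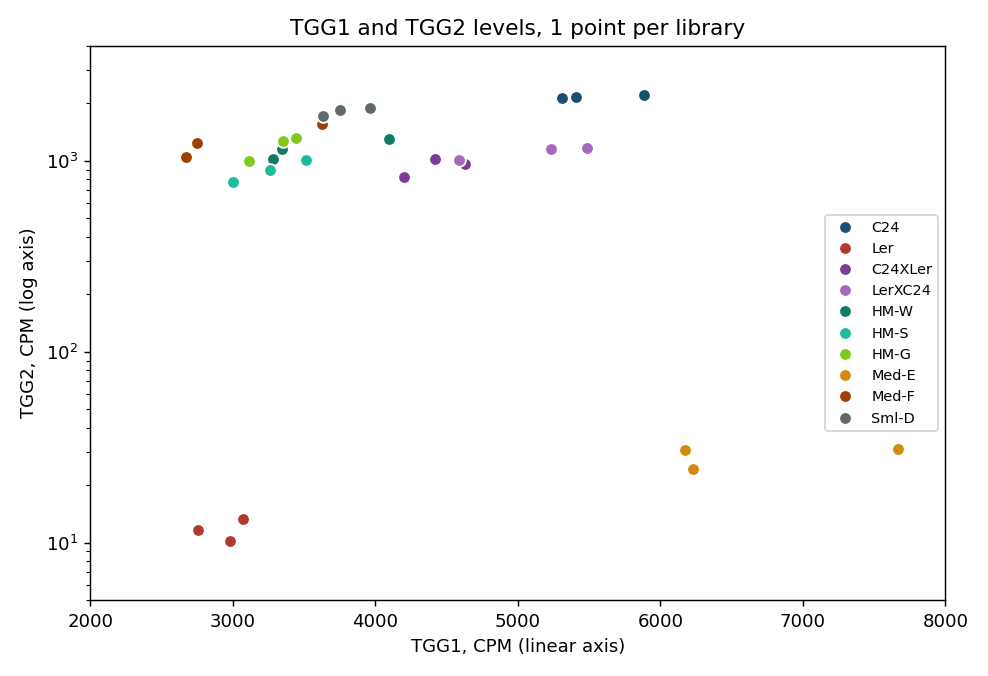
TGG2 CPM (log axis) against TGG1 CPM (linear axis), 1 dot per library, coloured by line. Ler and Med-E share the low TGG2 range but stand at opposite ends of the TGG1 range, with Ler at 3072.2 CPM or less and Med-E at 6171 CPM or more.

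Summed, the classical myrosinases were at 7700 ± 344 CPM in C24 and 2949 ± 162 CPM in Ler. Med-E had 6718 ± 847 CPM, above LerXC24 at 6214 ± 544, Sml-D at 5597 ± 253 and C24XLer at 5353 ± 293 CPM. HM-W had 4738 ± 587, HM-G 4498 ± 344, Med-F 4294 ± 780 and HM-S 4156 ± 372 CPM. The highest of the 12 libraries of these last 4 lines, 5406 CPM, lay below the lowest Med-E library at 6202 CPM.

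Levels of AT5G25990 and AT5G25920, which lie near TGG2, were read in each line. AT5G25990 lies between the myrosinases, at 9076107 to 9077379, and begins 329 bases beyond TGG2. Its level was 25.3 CPM in C24, 3.19 in Ler and 3.28 in Med-E, and its percentage of the C24 level followed that of TGG2 in the hybrids and F6 lines (46.6% beside 43.3% in C24XLer, 39.9% beside 41.4% in HM-S, 86.2% beside 83.8% in Sml-D). The sources used here do not say whether counting used strand, so reads running on from TGG2 cannot be told apart from reads of AT5G25990. AT5G25920, 26179 bases on the other side, was also low in Ler and Med-E (5.4% and 5.9% of C24) but was at 89.9% of C24 in HM-S, 90.1% in HM-W, at the C24 level in HM-G, and at 132.0% in Med-F, where TGG2 was at 41.4% to 59.0%.

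**Figure D3:**
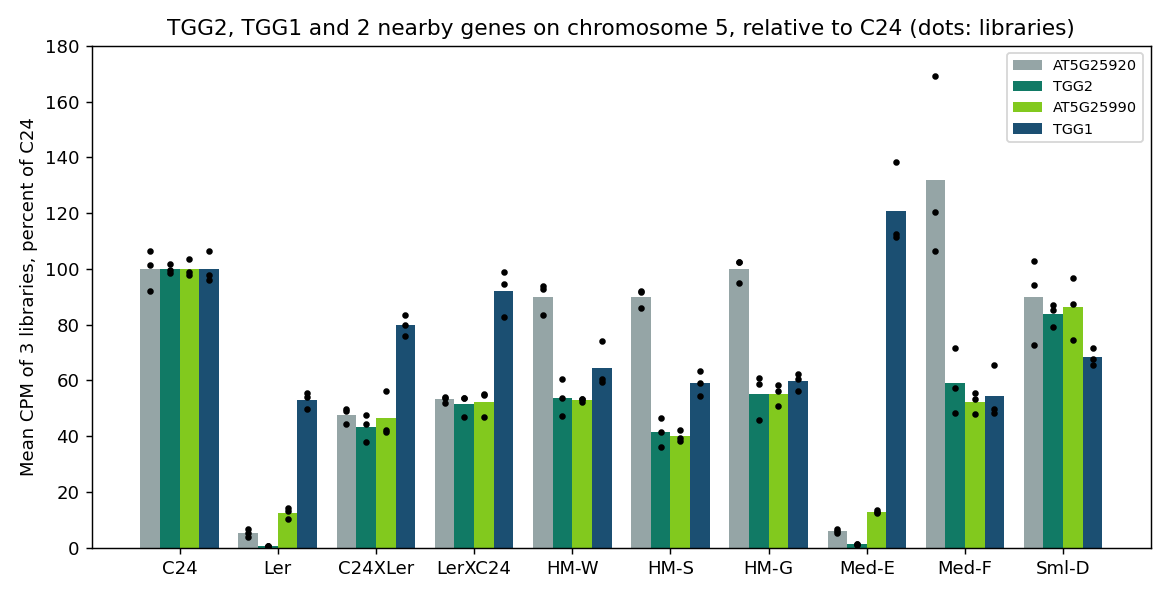
Mean CPM of 3 libraries as a percentage of the C24 mean (bars, axis from 0; dots are libraries) for TGG2, TGG1 and the nearby genes AT5G25990 and AT5G25920 in the 10 lines. In HM-W, HM-S, HM-G and Med-F, AT5G25920 stands at 89.9% or more while TGG2 and AT5G25990 stand between 39.9% and 59.0%.

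Over 500 kb on each side, 9 genes other than the myrosinases differed between the parents by a log2 change of at least 2. In Med-E 0 of the 9 were nearer to C24 and 9 nearer to Ler, on the log2 scale of their mean levels. Not all of the 9 were at the Ler level there. AT5G26020 was at 3.08 CPM in Med-E, beside 1.56 in Ler and 6.61 in C24. AT5G26280 was at 8.74 CPM, beside 4.2 in Ler and 24.1 in C24, whereas AT5G26345 was at 0.18 CPM, beside 0.19 in Ler. In Sml-D and HM-W 8 of 9 were nearer to C24, in HM-G and Med-F 6 of 9 and in HM-S 4 of 9. At a parental log2 difference of at least 1 there were 21 such genes, of which Med-E had 5 nearer to C24. The nearer parent is a description of levels and not a genotype.

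Within lines the myrosinases moved together, although across lines they did not. The Pearson correlation of their log2 levels was -0.064 over the 10 line means and 0.757 over the 30 libraries as deviations from their line means. The 30 include the Ler and Med-E libraries, where TGG2 was at 0.400% and 0.431% of TGG1 counts. If those counts are reads of TGG1 assigned to its neighbour, the 2 genes move together there by construction. Over libraries each was among the 2 genes most like the other of 23467 compared. The highest TGG1 library of a line was also the highest for the sum of 8 guard cell markers in 8 of 10 lines. For the highest TGG2 library this held in 7 of 10. For the sum of 6 phloem markers the figures were 5 and 4 of 10. Across lines, the guard cell sum averaged 82.7 CPM in Med-E and 83.5 CPM in Ler, the lines with the highest and lowest TGG1. The part of guard cells in these levels was not tested. Over line means, the genes most like TGG1 were AT5G02740 (r = 0.968), AT5G26015 (0.967, 6.0 kb away) and AT5G26150 (0.962, 55.1 kb away), and those most like TGG2 were AT5G28350 (0.983), AT5G34871 (0.981) and AT4G07874 (0.979).

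ESP, which diverts the aglucone to epithionitriles and nitriles, was nearly as abundant as TGG1. Per kilobase of exon, its line means ran from 1143 to 2546 CPM, beside 1552 to 3534 for TGG1 and 6.0 to 1099 for TGG2. ESP libraries had 5122, 4657 and 4407 CPM in C24, and 2967, 3023 and 2859 CPM in Ler. All C24 libraries were above all Ler libraries, and the log2 change was 0.68 ± 0.18 (edgeR, adjusted p = 0.0066).

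The hybrids had intermediate ESP, with 3691 ± 709 CPM in C24XLer and 3494 ± 444 CPM in LerXC24. ESP was called lower than C24 in HM-W (-0.93 ± 0.18, edgeR, adjusted p = 8.0e-04), HM-S (-0.76 ± 0.18, adjusted p = 0.0034) and Med-F (-1.16 ± 0.18, adjusted p = 6.2e-05), and in no F6 line was it called against Ler. In a fit of the compared lines alone the HM-S call was lost (adjusted p = 0.057) and HM-G was called (-0.56, adjusted p = 0.0048), and Sml-D was called without Sml-D 2 (-0.61, adjusted p = 0.040). Against Ler, that fit called ESP lower in Med-F (-0.48, adjusted p = 0.023; DESeq2 0.043) and higher in Med-E (0.49, adjusted p = 0.021). Med-F had the lowest mean, with libraries at 1821, 2177 and 2370 CPM, all below the lowest Ler library. All neighbouring lines overlapped in the order C24, Med-E, C24XLer, Sml-D, LerXC24, HM-G, Ler, HM-S, HM-W and Med-F. The genes most like ESP over line means were BCAT3, a branched-chain aminotransferase (r = 0.949), LPR1 (0.942) and AT2G21380 (0.939).

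NSP1, a nitrile-specifier protein, was at 321, 249 and 249 CPM in C24, and at 64.4, 63.3 and 51.3 CPM in Ler. The groups were far apart, with a log2 change of 2.19 ± 0.24 (edgeR, adjusted p = 1.1e-07). NSP1 was called lower than C24 in all 6 F6 lines, from -0.78 ± 0.23 in HM-W to -1.73 ± 0.23 in HM-G. It was called higher than Ler in HM-W (1.41 ± 0.23), Med-E (1.32 ± 0.23), Med-F (1.41 ± 0.23) and Sml-D (0.80 ± 0.23). HM-G was called above Ler with the compared lines alone (0.46, adjusted p = 0.0075). The Sml-D call against Ler was lost without Ler C or Sml-D 2 (adjusted p = 0.10 and 0.17). The calls against C24 were lost in HM-W without C24 A or HM-W 1 (0.090 and 0.061), and in Med-F without C24 A, Med-F 1 or Med-F 3 (0.080, 0.090 and 0.055). With clock gene levels as a covariate, the calls in HM-W and Med-E against C24 were lost (0.070 each), and HM-S was called against Ler without HM-S 2 (0.72, 0.033).

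NSP1 was the specifier protein that stood above the log mid-parent in a hybrid. C24XLer libraries had 334, 169 and 175 CPM, and LerXC24 libraries 131, 145 and 123 CPM. In C24XLer, TGG2 and NSP1 were the 2 genes called, beside 2.34% of all tested genes. NSP1 was higher there by 0.82 ± 0.19 (edgeR, adjusted p = 0.020). That call rested on library A: without it the change was 0.43 (adjusted p = 0.16), and without Ler C it was 0.78 (adjusted p = 0.052). It was also lost in a fit of the compared lines alone (adjusted p = 0.12) and against the arithmetic mean of the parents (0.44, adjusted p = 0.28). Library A of C24XLer also had the highest sum of 10 jasmonate response genes of all 30 libraries, 5624 CPM beside 1746 and 1598 CPM in B and C, and the part of that difference in NSP1 was not tested.

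Between LerXC24 and C24XLer, 0 of the 8 genes were called by edgeR, beside 4.92% of all tested genes. At an unadjusted p under 0.05 there were 4, and DESeq2 called 1, which was NSP1. NSP1 was lower in LerXC24 by -0.76 ± 0.23 (edgeR, adjusted p = 0.051), and it was called with DESeq2's size factors in edgeR (0.049). Without C24XLer C it was -0.94 and called (adjusted p = 0.021), and NSP5 was called without LerXC24 A (-0.95, adjusted p = 0.038).

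NSP1 levels across lines ran close to those of ER-body genes. Over the 10 line means the genes most like it were NAI1, a transcription factor required for ER bodies (r = 0.967), NAI2, an ER-body component (0.948), and JAL34, a jacalin-related lectin (0.917). NAI2 and JAL34 lie 163.4 and 23.9 kb from NSP1 on chromosome 3. As deviations within lines, NSP1 correlated at 0.162 with NAI1. The closest genes there were AT3G52700 (0.885), MEB2, an ER-body membrane protein gene (0.883), and AT3G52710 (0.883). Ordered by NSP1 level, lines ran C24, C24XLer, HM-W, Med-F, Med-E, LerXC24, Sml-D, HM-S, HM-G and Ler, with overlap between neighbours except C24XLer with HM-W, Med-E with LerXC24 and HM-G with Ler.

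NSP5, a further nitrile-specifier protein, did not follow the parents in the F6 lines. Its libraries had 104.9, 78.9 and 58.5 CPM in C24, and 49.2, 46.4 and 36.7 CPM in Ler. The log2 change was 0.87 ± 0.27 (edgeR, adjusted p = 0.019), and it was no longer called without C24 A (0.64, adjusted p = 0.11) or Ler C (0.76, adjusted p = 0.083). Sml-D had 88.4, 175.5 and 161.4 CPM, the highest of all lines, and was called above C24 (0.81 ± 0.27, adjusted p = 0.040) and above Ler (1.68 ± 0.28, adjusted p = 9.8e-05). The call against C24 was lost when C24 B, C24 C, Sml-D 2 or Sml-D 3 was left out (adjusted p 0.096 to 0.22) and with clock gene levels as a covariate (0.41, adjusted p = 0.58).

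At the other end, HM-W had 30.1, 31.4 and 29.1 CPM of NSP5, and HM-S 35.3, 24.7 and 23.2 CPM. Both lines lay below every Ler library. They were called against C24 (-1.42 ± 0.28 and -1.54 ± 0.28, edgeR, adjusted p = 6.7e-04 and 2.3e-04) and not against Ler (-0.55 ± 0.27 and -0.67 ± 0.27, adjusted p = 0.15 and 0.069). The HM-S difference from Ler was called without HM-S 1 (-0.88, adjusted p = 0.041), by DESeq2 (0.047) and with the compared lines alone (0.030), and the last fit also called HM-W (0.0056). Med-E was called above Ler (1.05 ± 0.27, adjusted p = 0.0099), but not without Ler C or Med-E 2 (adjusted p = 0.062 and 0.072). In the order of NSP5 levels, from Sml-D through Med-E, C24, C24XLer, Med-F, HM-G, LerXC24 and Ler to HM-W and HM-S, neighbours overlapped except Ler with HM-W.

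The genes most like NSP5 over line means were SHM7, a serine hydroxymethyltransferase (r = 0.979), AT5G04170 (0.978) and AT2G47630 (0.975). SHM7 also correlated with it at 0.811 over deviations within lines. Within lines the closest were the glucosidase gene BGLU28 (0.880), AT3G05400 (0.850) and the serine acetyltransferase gene SERAT3;2 (0.833). BGLU28 was at 4.94 CPM in C24 and 1.69 CPM in Ler, and between 1.79 and 2.26 CPM in the 3 HM lines beside 4.31 to 7.88 CPM in the other F6 lines.

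PEN2 was the steadiest of the 8 genes. Its line means ran from 108.9 CPM in Med-E to 164.8 CPM in LerXC24, a 1.51-fold range, and all neighbouring lines overlapped in the order LerXC24, HM-S, C24XLer, C24, HM-W, Med-F, Ler, HM-G, Sml-D and Med-E. C24 had 135.0, 137.6 and 148.1 CPM, and Ler 113.9, 133.4 and 128.2 CPM. The log2 change between the parents was 0.16 ± 0.13, with a 95% interval of -0.09 to 0.42. PEN2 was not called in any of the 18 comparisons. It was called in LerXC24 against the log mid-parent without C24 C (0.34, edgeR, adjusted p = 0.050) or LerXC24 A (0.40, adjusted p = 0.029), in Med-E against C24 without Med-E 3 (-0.48, adjusted p = 0.023), in HM-S against Ler without HM-S 2 (0.44, adjusted p = 0.025), and in Sml-D against C24 with the compared lines alone (-0.34, adjusted p = 0.021). DESeq2 called it in LerXC24 against the log mid-parent (0.049) and in Med-E against C24 (0.040). The genes most like PEN2 over line means were VPS20.1 (r = 0.969), AT1G22200 (0.966) and AT5G38060 (0.960).

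PYK10, the main glucosidase of ER bodies in roots and seedlings, was at 255.5, 209.6 and 205.6 CPM in C24, and at 77.4, 43.9 and 46.3 CPM in Ler. The groups did not overlap, and the log2 change was 2.00 ± 0.30 (edgeR, adjusted p = 1.9e-05). Its last 138 bases overlap AT3G09250, which did not differ between the parents (0.11, adjusted p = 0.50). Of 13 root markers, 4 were called higher in C24 and 0 lower, or 30.8% beside 25.8% of all tested genes, and their sum overlapped between C24 (17.2 to 26.6 CPM) and Ler (15.1 to 19.3 CPM). Among the root markers, EXPA7 was at a mean of 1.65 CPM in C24, IRT1 at 2.11 and EXPA18 at 0.66 CPM. The part of root markers in the PYK10 difference was not tested.

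In the hybrids PYK10 was not called, with 97.5, 116.0 and 187.3 CPM in C24XLer and 81.0, 105.9 and 67.6 CPM in LerXC24. It was called lower than C24 in HM-S (-1.498 ± 0.299), HM-G (-1.35 ± 0.30) and Sml-D (-0.88 ± 0.30), and higher than Ler in HM-W (1.25 ± 0.30), Med-E (1.48 ± 0.30), Med-F (1.26 ± 0.30) and Sml-D (1.12 ± 0.30). The Sml-D call against C24 had an adjusted p of 0.040 by edgeR, and leaving out C24 A, C24 B, C24 C, Sml-D 2 or Sml-D 3 raised it to between 0.062 and 0.16. Against Ler the Sml-D call was lost without Ler B, Ler C or Sml-D 1 (0.070 to 0.088). PYK10 was called lower than C24 in HM-W without HM-W 3 (-1.02, 0.041) and in Med-F without Med-F 2 (-1.21, 0.0046), and higher than Ler in HM-G without Ler A (0.96, 0.043). With clock gene levels as a covariate, the calls in Sml-D against C24 (0.25) and HM-W against Ler (0.22) were lost.

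PYK10 ran with AT3G20370 and with lectin genes over line means. The genes most like it were AT3G20370 (r = 0.964), the lectin gene JAL22 (0.956) and the lectin gene JAL33 (0.935). Within lines the closest were AT2G38390 (0.932), GSTU8 (0.929, 4.4 kb away) and AT3G32980 (0.907). PYK10 and NSP1 correlated at 0.884 over line means and 0.156 within lines. Ordered by level, PYK10 ran C24, Med-E, Med-F, C24XLer, HM-W, Sml-D, HM-G, LerXC24, HM-S and Ler, with overlap between neighbours except C24 with Med-E and Sml-D with HM-G.

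BGLU18, an ER-body glucosidase of leaves that is induced by wounding and jasmonate, had the widest spread between libraries of a line among the 8 genes. HM-S libraries had 1044, 78.1 and 357 CPM, a 13.4-fold range, beside a 3.20-fold range between line means. C24XLer libraries had 1527, 441 and 302 CPM, and Ler libraries 178, 636 and 180 CPM. The median of this within-line ratio over lines was 1.94 for BGLU18, beside 1.14 for TGG1 and a median of 1.13 over 3926 genes with a mean of at least 50 CPM.

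BGLU18 was called in no comparison. Between the parents the log2 change was 0.28 ± 0.63, with a 95% interval of -0.95 to 1.51. Its largest change was -1.68 ± 0.64 in LerXC24 against C24XLer (edgeR, adjusted p = 0.14). Line means ran C24XLer, Med-E, Sml-D, HM-S, C24, Ler, HM-G, HM-W, Med-F and LerXC24, and all neighbours overlapped.

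The library with the most BGLU18 was in all 10 lines also the one with the highest sum of the 10 jasmonate response genes. That sum ran from 465 CPM, in the HM-S library with the least BGLU18, to 5624 CPM, in the C24XLer library with the most. The same agreement was found in 8 of 10 lines for ESP, 6 for NSP1, 5 for NSP5 and PEN2, 4 for TGG1, 3 for TGG2 and 2 for PYK10. With 3 libraries per line, agreement in some lines arises without any link. With the sums of guard cell, root and phloem markers, BGLU18 agreed in 6, 6 and 4 of 10 lines and NSP1 in 6, 3 and 3. LOX2 was the largest single part of the jasmonate sum in every line. Its mean was 1584 CPM of a sum of 2989 CPM in C24XLer, and 1696 of 2777 CPM in Med-E. The part of a jasmonate response, or of handling at harvest, in BGLU18 was not tested.

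The gene most like BGLU18 was its neighbour TSA1, which encodes an ER-body protein and lies 2191 bases away on chromosome 1 at 19520603 to 19525685. They correlated at 0.967 over line means and 0.990 over deviations within lines. TSA1 had 189.7, 24.2 and 73.8 CPM in the HM-S libraries and 286.7, 95.85 and 73.0 CPM in the C24XLer libraries, in the same order as BGLU18. Within lines the next were the lectin genes JAL35 (also named JR1, 0.918) and JAL23 (0.909), and over line means PMSR2 (0.941) and AT5G53050 (0.940).

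**Figure D4:**
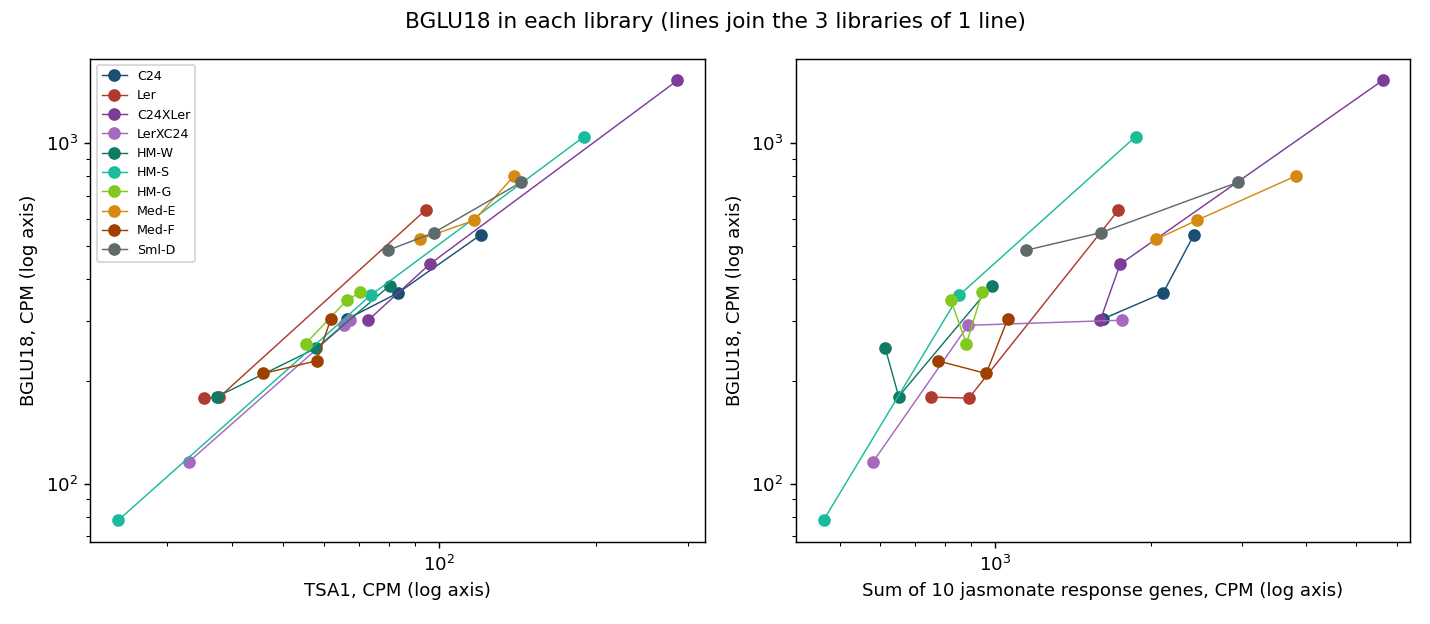
BGLU18 CPM against TSA1 CPM (left) and against the summed CPM of 10 jasmonate response genes (right), all on log axes, with the 3 libraries of a line joined. BGLU18 runs from 78.1 to 1527 CPM, and in every line the library highest on the right-hand x axis is also the highest for BGLU18.

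In total, 25 of the 48 pairs of gene and F6 line were called against C24, 24 lower and 1 higher, and 18 of 48 were called against Ler, all higher. With the compared lines alone 24 were called against Ler, of which NSP5 in HM-W and HM-S and ESP in Med-F were lower. These 2 sets of comparisons share the F6 libraries and are not independent. Against C24 the count was 6 of 8 in HM-S beside 26.3% of all tested genes, 5 in HM-W beside 19%, 4 in HM-G beside 8.95%, 2 in Med-E beside 19.2%, 4 in Med-F beside 19.4% and 4 in Sml-D beside 16.9%. Against Ler the count was 1 in HM-S beside 28%, 3 in HM-W beside 25.8%, 1 in HM-G beside 21%, 5 in Med-E beside 12.8%, 3 in Med-F beside 23.8% and 5 in Sml-D beside 12.5%. In HM-S, TGG2 alone was called against Ler while 6 genes were called against C24, and in HM-G the figures were TGG2 alone and 4. Med-E had the opposite pattern, with TGG2 and NSP1 called against C24 and TGG1, TGG2, NSP1, NSP5 and PYK10 against Ler.

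**Figure D5:**
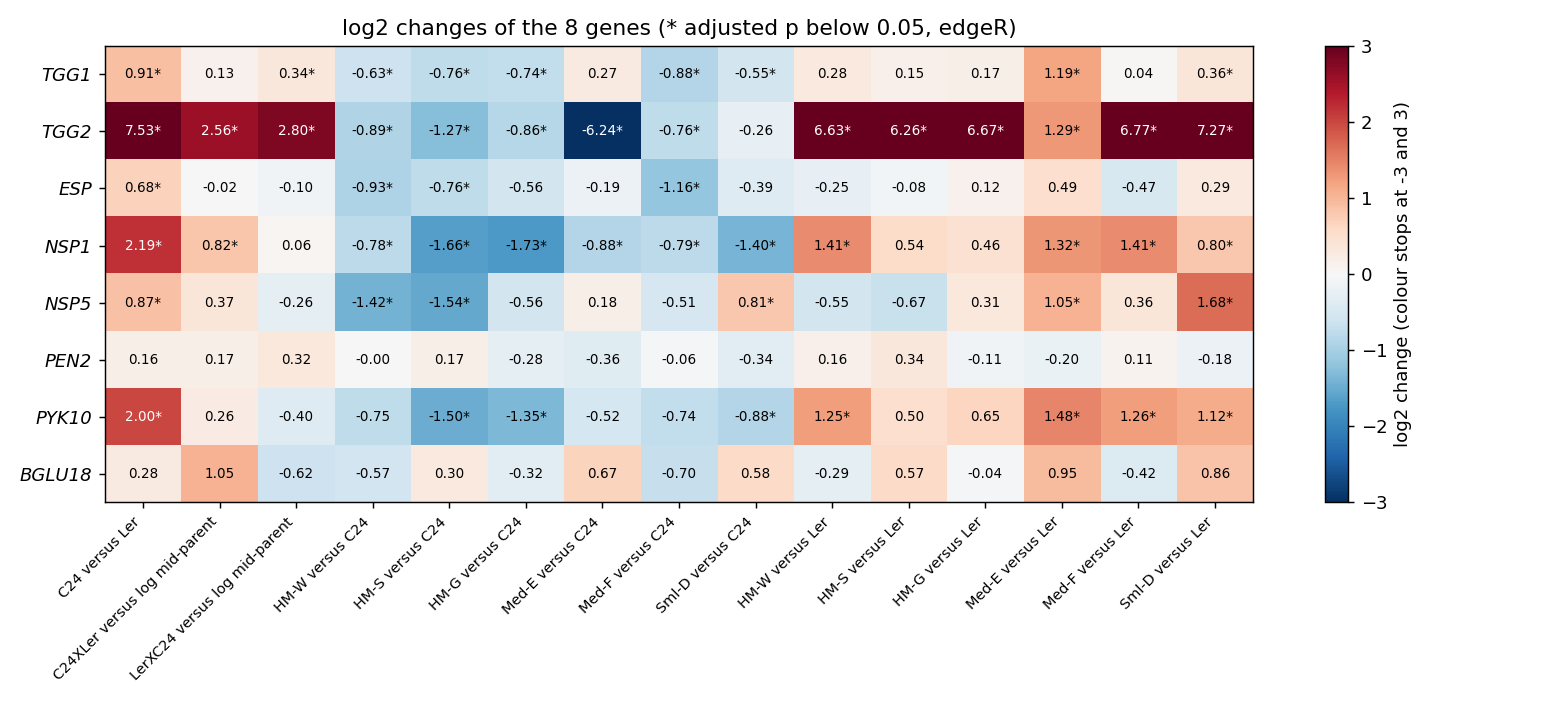
Log2 changes of the 8 genes (rows) in the parents, in each F1 against the log mid-parent and in each F6 line against C24 and against Ler (columns), with an asterisk at an adjusted p under 0.05 (edgeR) and colour limited to -3 and 3. Blue prevails against C24 and red marks the called changes against Ler, and Sml-D NSP5 is the called exception above C24.

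Between the hybrid mimics and the other F6 lines, 0 of the 8 genes were called by edgeR with the line as the replicate (3 lines against 3), beside 1.48% of all tested genes. At an unadjusted p under 0.05 there was 1, NSP5, which was also the 1 gene that DESeq2 called (adjusted p = 0.0063). NSP5 was lower in the mimics by -1.36 ± 0.40 (edgeR, adjusted p = 0.14). All 3 mimic lines, at 27.8 to 54.8 CPM, lay below the other lines, at 56.7 to 141.8 CPM, although HM-G and Med-F libraries overlapped. For TGG2 the other lines alone spanned 28.7 to 1814 CPM. With the 18 sibling libraries taken as replicates 6 genes were called, which treats siblings of a line as independent.

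The rest of the pathway was read through lists of related genes, chosen with earlier results of these data known. Of 14 genes of the ER body and the PYK10 complex, 9 were called higher in C24 than in Ler and 0 lower. Of all tested genes 25.8% were called there in either direction. The 14 genes had a median log2 change of 1.18, beside 0.005 over all tested genes. GLL23, a lectin-associated lipase-like protein, was higher by 2.25 ± 0.38, JAL34 by 2.17 ± 0.18 and JAL33 by 2.15 ± 0.22. In Med-E 8 of the 14 were called above Ler and 0 below, beside 12.8% of all tested genes. Against the log mid-parent, 1 of the 14 was called in both F1 together, beside 11.5% of all tested genes. It was GLL23 at 0.85 ± 0.26.

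Of 3 other nitrile-specifier genes, NSP3 and NSP4 were called higher in C24, by 1.01 ± 0.16 and 0.66 ± 0.22, and 0 lower. Of 16 tested other glucosidases of the same family, 2 were called higher and 1 lower between the parents. For both lists the share of all tested genes called was 25.8%. BGLU28 was higher in C24 by 1.55 ± 0.58, BGLU32 was higher by 0.63 ± 0.23, and BGLU30 was lower by -1.64 ± 0.49. The root myrosinases TGG4 and TGG5 stayed below 1.6 CPM in all line means. In both F1 together BGLU30 (-1.08 ± 0.35) and BGLU25 (-0.18 ± 0.06) were called lower than the log mid-parent and 0 higher. The share of all tested genes called there was 11.5%.

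Downstream of breakdown, where nitrilases convert nitriles and PEN3 exports products of the PEN2 pathway, 1 of 5 genes was called higher and 1 lower in C24. The share of all tested genes called was 25.8% between the parents and 11.5% in both F1 together. NIT2 was at 20.9 CPM in Ler and lower in C24 (-3.41 ± 1.00), and NIT1 was higher in C24 by 0.58 ± 0.20. NIT2 was lower than the log mid-parent in both F1 together by -3.36 ± 0.79, the 1 gene of the 5 called there. Of 5 transporters and transcription factors of myrosin and guard cells, 0 were called higher and 2 lower in C24. SCRM2, a partner of FAMA in stomatal and myrosin cell fate, was at -1.05 ± 0.10, and the glucosinolate transporter gene GTR2 was at -0.77 ± 0.15. In both F1 together FAMA was higher than the log mid-parent by 0.31 ± 0.08 and GTR1 lower by -0.42 ± 0.14.

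On the supply side, 9 of 22 genes of glucosinolate synthesis were called higher and 2 lower in C24 than in Ler. Their median was 0.36, and 25.8% of all tested genes were called. The largest differences were the side-chain genes AOP2 (8.19 ± 0.24), AOP3 (-7.57 ± 0.32) and GS-OH (3.57 ± 0.57). Of the jasmonate response genes, 1 of 10 was called between the parents, beside the same 25.8%. It was AOS (1.08 ± 0.32), which makes a jasmonate precursor. In LerXC24 against C24XLer, 6 of the 22 synthesis genes and 4 of the 10 jasmonate response genes were called lower and 0 higher, beside 4.92% of all tested genes. The jasmonate sum of C24XLer was 5624 CPM in library A and 1746 and 1598 CPM in B and C, and LerXC24 A, at 1758 CPM, lay above B and C. Between the hybrid mimics and the other F6 lines, MYB34, a regulator of indole glucosinolates, was called lower (-0.9997 ± 0.1471), SCRM2 higher (1.32 ± 0.09), BGLU28 lower (-1.72 ± 0.24) and BGLU32 higher (1.10 ± 0.12). Of 8 guard cell markers, 1 was called higher in the mimics (KAT1, 0.86 ± 0.13) and 7 were not called, beside 1.48% of all tested genes. KAT1 line means were 49.6 to 70.7 CPM in the mimics and 32.5 to 34.4 CPM in the other F6 lines. The sum of all 8 markers was 102 to 141 CPM in mimic libraries beside 74.7 to 89.6 CPM in the other F6 libraries. KAT1 was a large part of that sum, at 70.7 CPM of a mean of 134.9 CPM in HM-S. Line means of HT1 and GC1 also lay higher in all mimics, whereas those of KAT2, MYB60, SLAC1, BLUS1 and ALMT12 overlapped between the groups.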

How the data were processed

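RNA of 30 libraries was sequenced with TruSeq kits, per the labels' protocols. The submitters' processing notes name FastQC, DESeq and the TAIR10 build. Neither aligner nor counter nor the use of strand was stated there or in the labels. Values as deposited are raw read counts per gene, which the authors did not normalize. Counts of 33498 genes were fitted in R 4.3.3 with edgeR 4.0.16 (quasi-likelihood, TMM factors 0.943 to 1.082), with 1 coefficient per line. Genes were kept by filterByExpr at a minimum count of 10, which left 29268, and p-values were Benjamini-Hochberg adjusted over all of them. Hybrid mimics were compared with the other F6 lines on counts summed per line, with 29951 genes tested. Mid-parents were means of the parents' log2 levels. Alternatives used DESeq2 1.42.0, size factors of that kind in edgeR, other designs, a clock gene index and fits that leave out 1 library. Genes named outside the set were members of fixed lists with the largest called changes, or the 3 most correlated genes; EXPA18, IRT1, TGG4 and TGG5 were added after their values were seen. The members and lists were chosen with earlier results of these data known. Scripts were tested on simulated data. 1 gene of the set is not reported here.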

Additional observations from a re-analysis of the deposited data

How the results depend on the processing

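The count of 6 of 8 genes called between the parents was the same under every alternative that kept all libraries, and 5 to 6 when 1 library was left out. Against the log mid-parent, both F1 together had 1 called gene, 2 in a fit of the compared lines alone, 3 with DESeq2, 0 on the arithmetic mid-parent, and 1 to 2 without 1 library. C24XLer had 2, but 1 with the compared lines alone and 0 on the arithmetic mid-parent (1 to 2 without 1 library), and LerXC24 had 2, but 1 with the clock index and 0 on the arithmetic mid-parent (1 to 3). On the arithmetic mid-parent TGG2 changed sign, to -0.092 in both F1 and -0.216 in C24XLer, by the construction of that scale. Between the hybrids the count of 0 became 1 with DESeq2's size factors, with DESeq2 and with the replicate block (0 to 1 without 1 library). The hybrid mimic count of 0 became 1 with DESeq2 and 6 with siblings as replicates, and stayed 0 in the fits that leave out 1 library. Of the F6 pairs, 22 to 26 were called against C24 (25 in full) and 14 to 20 against Ler (18 in full) without 1 library. With all libraries, the counts were 27 and 24 with the compared lines alone, 27 and 20 with DESeq2, and 21 and 17 with the clock index. DESeq2 called 3 in LerXC24. The correlation with the most similar gene over line means was, over deviations within lines (chosen after seeing the data), -0.302 for TGG1, 0.162 to 0.24 for TGG2, ESP, NSP1 and PEN2, and 0.811 to 0.99 for NSP5, PYK10 and BGLU18. With the window or the parental difference changed, 58 counts of flanking genes nearer to C24 moved and 38 did not. The number of flanking genes itself changes with these settings, and the counts were not taken as shares. The 58 and 38 therefore do not measure how stable the nearer parent is. The causes of the other changes were not tested. Deviations of libraries with the same replicate label correlated at -0.23 to 0.29 (63 pairs, 10 over 0.1). C24 and LerXC24 were at 0.23, -0.03 and 0.29 for labels A, B and C. Libraries of different labels were not compared, so a weak pairing cannot be judged, and the labels were not taken as pairing. With the replicate block 26 F6 pairs were called against C24 and 17 against Ler. That fit sets the level of sibling 1 against that of replicate A, so these counts do not compare line means.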
